A study of Homo sapiens with 2 samples.

Results

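The 10 genes described here carry or restrain Nodal and Activin signalling. They are the ligand genes NODAL and GDF3, the co-receptor gene TDGF1, the receptor genes ACVR1B, ACVR2A and ACVR2B, the secreted inhibitor genes LEFTY1, LEFTY2 and CER1, and FOXH1, which encodes a nuclear partner of SMAD proteins. They were chosen by gene symbol, and all 10 were found among the 24462 symbols of the count tables. The NPC library came from neural precursor cells made from H9 cells on a layer of MS5 cells, and the hESC library from undifferentiated H9 cells. H9 is an established human embryonic stem cell line, so both libraries come from the same line. MS5 is a mouse stromal line, and the share of mouse RNA in the NPC library was not measured. The labels name no passage or time of differentiation. The column headers carry the codes P2 (NPC) and P25 and D0 (hESC), which no label explains, so a passage or day that differs between the libraries cannot be told apart from the groups. Each group had 1 library made from 1.3 µg of total RNA, so the differences below are between these 2 libraries and carry no test.

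Nodal and Activin are ligands of the TGF-beta family. They bind type II receptors (ACVR2A or ACVR2B), which phosphorylate a type I receptor such as ACVR1B (ALK4), and this phosphorylates SMAD2 and SMAD3. Nodal also needs a co-receptor of the EGF-CFC family, to which TDGF1 (Cripto) and CFC1 (Cryptic) belong, whereas Activin does not. SMAD2 and SMAD3 join SMAD4 and, at many early embryonic targets, FOXH1. NODAL, LEFTY1 and LEFTY2 are themselves targets, so the pathway feeds on itself and makes its own inhibitors. In human pluripotent cells this signal helps to maintain NANOG, and its inhibition is widely used to direct such cells to a neural fate.

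Promoter windows were compared in sequence between those ligand and inhibitor genes that had one and the receptor genes. Each window runs from 250 bases before to 50 bases after an annotated start and was taken from RefSeq, build GRCh38.p14. Windows were found for NODAL, GDF3, CER1, ACVR1B, ACVR2A and ACVR2B. TDGF1, LEFTY1 and LEFTY2 had no entry. The chromosome of FOXH1 was left out of this step, so no window of FOXH1 is described. The windows below are shown because the first 3 genes were at or under 0.698 CPM (a read count scaled to the size of its library) in the NPC library, while ACVR1B and ACVR2A had 35.2 and 37.7 CPM there. They lie at chr10:70441632-70441931 (minus strand), chr12:7695726-7696025 (minus strand), chr9:14722684-14722983 (minus strand), chr12:51951449-51951748 (plus strand) and chr2:147844779-147845078 (plus strand). Each is written 5′ to 3′ on the strand of its gene, and capitals mark CG dinucleotides.
NODAL: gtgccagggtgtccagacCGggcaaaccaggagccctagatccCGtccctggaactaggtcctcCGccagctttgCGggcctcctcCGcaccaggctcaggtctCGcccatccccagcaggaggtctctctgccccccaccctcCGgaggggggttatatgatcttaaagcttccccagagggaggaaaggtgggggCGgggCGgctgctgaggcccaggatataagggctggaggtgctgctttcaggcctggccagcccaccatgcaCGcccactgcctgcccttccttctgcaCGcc
GDF3: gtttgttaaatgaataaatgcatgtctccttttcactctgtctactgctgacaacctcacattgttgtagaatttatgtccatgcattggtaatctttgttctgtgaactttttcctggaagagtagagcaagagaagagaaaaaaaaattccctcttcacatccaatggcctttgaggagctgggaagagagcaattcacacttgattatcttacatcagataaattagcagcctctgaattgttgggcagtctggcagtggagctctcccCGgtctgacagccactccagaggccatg
CER1: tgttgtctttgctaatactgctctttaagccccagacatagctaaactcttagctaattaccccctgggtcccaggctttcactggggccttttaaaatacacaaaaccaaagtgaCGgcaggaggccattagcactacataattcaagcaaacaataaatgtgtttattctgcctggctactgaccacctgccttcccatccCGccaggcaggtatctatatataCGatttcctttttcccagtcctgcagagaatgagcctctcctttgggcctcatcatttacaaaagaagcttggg
ACVR1B: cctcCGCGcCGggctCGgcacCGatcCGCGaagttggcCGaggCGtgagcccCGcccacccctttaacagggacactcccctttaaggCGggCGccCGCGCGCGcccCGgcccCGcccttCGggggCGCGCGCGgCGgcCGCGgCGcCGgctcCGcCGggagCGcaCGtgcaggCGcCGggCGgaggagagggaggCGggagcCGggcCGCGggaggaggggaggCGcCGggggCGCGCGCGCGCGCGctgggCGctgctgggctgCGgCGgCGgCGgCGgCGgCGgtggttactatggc
ACVR2A: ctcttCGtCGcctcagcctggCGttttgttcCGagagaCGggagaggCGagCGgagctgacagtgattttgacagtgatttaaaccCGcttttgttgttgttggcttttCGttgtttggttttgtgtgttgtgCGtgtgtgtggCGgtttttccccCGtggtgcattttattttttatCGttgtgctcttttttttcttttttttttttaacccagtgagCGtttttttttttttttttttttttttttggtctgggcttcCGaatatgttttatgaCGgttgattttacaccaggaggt

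A window of each receptor gene was rich in CG and those of NODAL, GDF3 and CER1 were not. The ratio of observed to expected CG was 0.338 for NODAL with 11 CG, 0.0732 for GDF3 with 1 CG and 0.203 for CER1 with 3 CG. It was 1.11 for ACVR1B with 56 CG, 1.32 for ACVR2A with 16 CG and 0.794 for ACVR2B with 31 CG. The median over 35116 RefSeq windows of this length was 0.579, so NODAL, GDF3 and CER1 lay below it and these receptor windows above it, except another annotated start of ACVR1B at 0.369. The windows of CFC1 and CFC1B, co-receptor genes that were higher in the NPC library, were also poor in CG, at 0.0511 and 0.150. The motifs below were searched on both strands, and no match overlapped another. ATNCACA, the core of the FOXH1 motif, was found in GDF3 and in CER1, and in 10.7% of all windows. CAGAC, the core of a SMAD box, was found in GDF3 (2 times), NODAL, CER1, ACVR2A and the other ACVR1B window, and in 45.3% of all windows. TATAA was found 2 times in NODAL and in none of the other windows of these genes, and in 20.4% of all windows. These are matches of letters and not sites of binding.

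The NPC library held 24065750 counted reads and the hESC library 19686728. Values are CPM on library sizes scaled with TMM, a factor that sets the middle of the genes' ratios to no change. A count of 0 allows up to 0.110 CPM in the NPC and 0.173 CPM in the hESC library. Ratios are NPC over hESC, with an exact 95% interval that covers counting error only. A gene with at least 5 CPM in either library was called higher or lower when the interval bound nearest to no change was 2-fold or more. Over all 13535 genes that reached 5 CPM, 19.8% were called lower and 19.6% higher, and the median log2 ratio was -0.09. With the library total in place of TMM, 67.2% of the calls were higher, against 49.7% with TMM, and the median log2 ratio of all genes moved by 0.39. The markers went with the labels. All 10 genes of a pluripotent cell list were lower in the NPC library, with a summed level of 117 CPM in the NPC and 9094 CPM in the hESC library. Of 9 measured genes of a neural progenitor list, 8 were higher and none was lower, with summed levels of 5896 CPM in the NPC and 776 CPM in the hESC library. A list of stroma and fibroblast markers summed to 1025 CPM in the NPC and 774 CPM in the hESC library. Of its 9 measured members, 6 were higher and 2 lower, and no marker of these 3 lists was at 0. The part of these cell types in the differences below was not tested. In bulk RNA, fewer cells of a type and less RNA per cell cannot be told apart.

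The ligand, co-receptor, LEFTY and FOXH1 genes were lower in the NPC library, and the receptor genes were not, except ACVR2B once a trend with transcript length was removed. Of the 10 genes, 9 reached 5 CPM in some library. NODAL, GDF3, TDGF1, LEFTY1, LEFTY2 and FOXH1 were called lower, against 19.8% of all genes. These 6 reached 5 CPM through the hESC library, which leaves no way to a higher call, so their count is a description. ACVR2A was called higher, against 19.6% of all genes. Over the 10 genes the median log2 ratio was -3.01, against -0.12 over all 24462 symbols without a filter. ACVR1B and ACVR2B were measured in both libraries and not called, and CER1 was below the filter in both. With a 4-fold bound the same 6 genes were lower, against 7.26% of all genes, and 0 of the 10 were higher, against 9.13%. With a filter at 20 CPM 2 genes, TDGF1 and FOXH1, were lower, against 21.6%. The plot of levels by gene gives both libraries side by side, and the plot against all genes places them in the whole table.

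**Figure D1:**
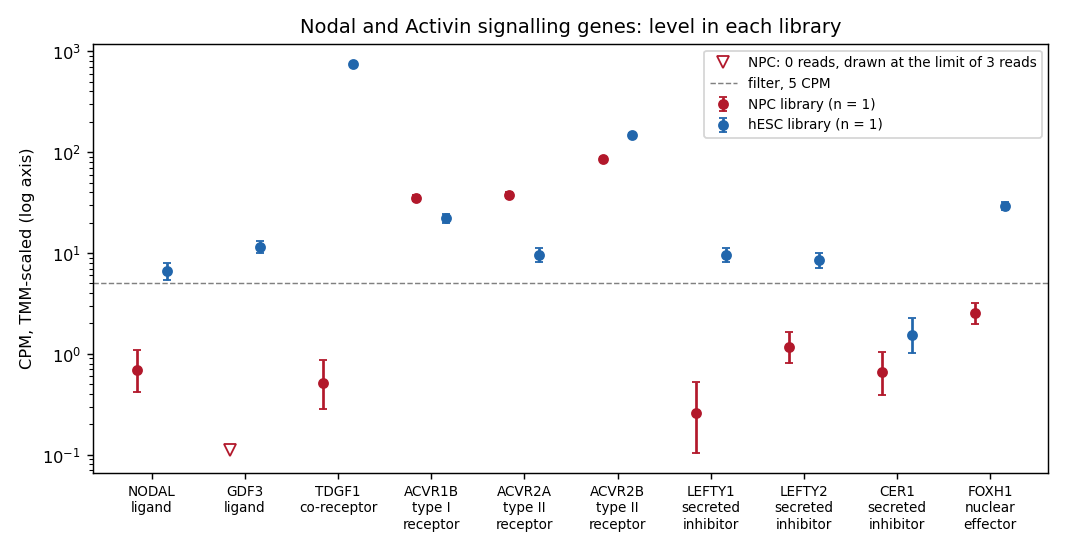
Level of each of the 10 genes in CPM on a log axis, with exact 95% counting intervals, in the NPC library (left point of each pair) and the hESC library (right point). TDGF1 had 0.515 CPM in the NPC library and 745 CPM in the hESC library, while the 3 receptor genes lay above the filter of 5 CPM in both, and the open triangle is a count of 0 drawn at the limit of 3 reads.

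**Figure D2:**
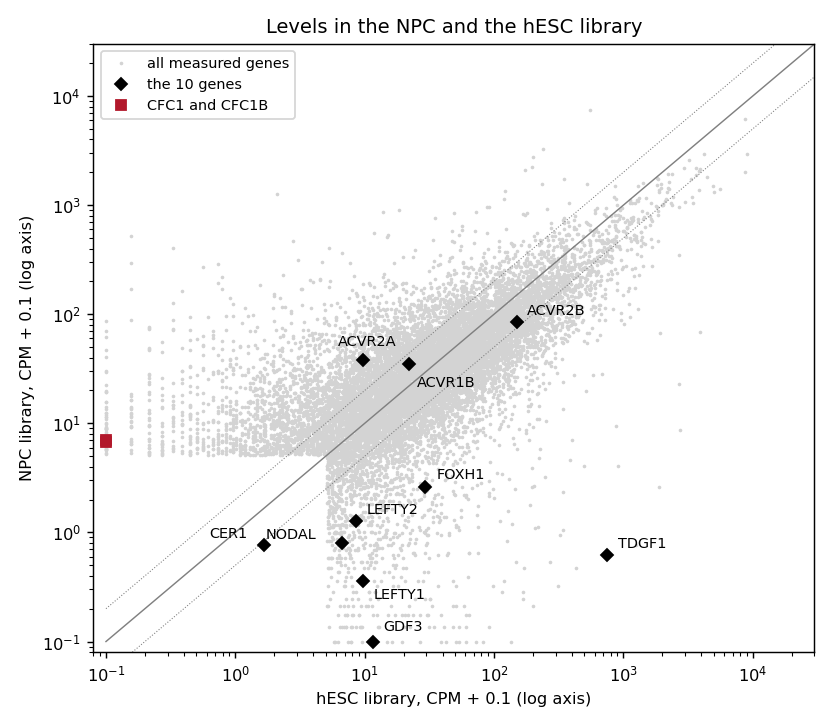
Level in the NPC library against level in the hESC library, as CPM + 0.1 on log axes, for all 13535 measured genes (grey), the 10 genes (black diamonds) and CFC1 and CFC1B (red squares, which overlap). The solid line marks equal levels and the dotted lines a 2-fold difference; TDGF1 and GDF3 lie far below the lines, and ACVR2A above them.

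Both ligand genes were lower in the NPC library. NODAL, the ligand that patterns the early embryo, had 19 reads (0.698 CPM) in the NPC and 114 reads (6.56 CPM) in the hESC library. It was 9.19-fold lower (95% interval 5.75 to 16.2), close to the filter in the hESC and well under it in the NPC library. GDF3, a TGF-beta family ligand expressed in pluripotent cells, had 0 reads in the NPC and 199 reads (11.4 CPM) in the hESC library. Against a floor of 3 reads in the NPC library it was at least 104-fold lower, and the bound of its exact interval, which also covers counting error in the hESC reads, was 83.6-fold. Reads of both genes can be compared within a library, without any scaling. GDF3 made up 0 of 19 GDF3 and NODAL reads in the NPC library (upper bound 17.6%) and 63.6% of 313 in the hESC library (58.0% to 68.9%). The ratio of GDF3 to NODAL reads was at least 7.90-fold lower in the NPC library by the bound of its interval.

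The co-receptor genes differed in opposite directions. TDGF1 had 14 reads (0.515 CPM) in the NPC and 12949 reads (745 CPM) in the hESC library. Per kb of transcript it was at 0.205 CPM in the NPC library and at 296 CPM in the hESC library, where it held place 244 of 21875 symbols with a length. CFC1 and CFC1B, near-identical genes for the other EGF-CFC co-receptor, had 187 and 181 reads in the NPC library (6.87 and 6.65 CPM) and 0 reads each in the hESC library. Against a floor of 3 reads in the hESC library they were at least 39.8-fold and 38.6-fold higher in the NPC library, with exact interval bounds of 32.1-fold and 31.0-fold, and they passed the filter there alone. The copies shared 89.6% of their 50-base stretches in GENCODE 29 transcripts, so their counts may hold the same reads and are not separate findings. TDGF1 shared 40.7% of its 50-base stretches with TDGF1P3, an expressed pseudogene copy. TDGF1P3 had 20 reads in the NPC and 2175 reads in the hESC library. TDGF1 made up 41.2% of the reads of this pair in the NPC library (24.6% to 59.3%, 34 reads) and 85.6% in the hESC library (85.0% to 86.2%, 15124 reads). The intervals are apart, so the reads were split between the copies in another way in the NPC than in the hESC library. LRRC2 overlaps TDGF1 on the other strand and had 260 reads in the NPC and 177 in the hESC library. With the reads of TDGF1 and TDGF1P3 summed, the log2 ratio was -9.42 in place of -10.45.

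The receptor genes passed the filter of 5 CPM in both libraries, and their levels lay closer together in the NPC library. Per kb of transcript, ACVR2A held only place 9 of the 10 genes in the hESC library. ACVR2A, a type II receptor gene, had 1025 reads (37.7 CPM) in the NPC and 166 reads (9.55 CPM) in the hESC library. It was 3.94-fold higher (3.35 to 4.68). ACVR1B, the gene of the type I receptor ALK4, had 957 reads (35.2 CPM) in the NPC and 383 reads (22.0 CPM) in the hESC library, a ratio of 1.60 (1.42 to 1.80). ACVR2B, the other type II receptor gene, had 2317 reads (85.2 CPM) in the NPC and 2592 reads (149 CPM) in the hESC library, a ratio of 0.571 (0.540 to 0.604). ACVR1B and ACVR2B therefore stayed within the 2-fold rule, in opposite directions. ACVR2B depended on a setting. With the trend of the ratios with transcript length removed, its log2 ratio was -1.21 in place of -0.81 and it was called lower, which makes 7 lower genes against 18.8% of all genes. Its longest transcript, at 11.8 kb, is the longest of the 10.

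Per kb of transcript, the 3 receptors were at 7.71 (ACVR1B), 7.21 (ACVR2B) and 6.58 CPM per kb (ACVR2A) in the NPC library. Counting intervals of neighbours in this order overlapped, while those of ACVR1B (7.23 to 8.21) and ACVR2A (6.18 to 6.99) did not. In the hESC library they were at 4.83 (ACVR1B), 12.6 (ACVR2B) and 1.67 CPM per kb (ACVR2A), with no overlap of intervals. The balance of the type II receptors can be read within each library. ACVR2A had 30.7% of the ACVR2A and ACVR2B reads in the NPC library (29.1% to 32.3%) and 6.02% in the hESC library (5.16% to 6.97%), so its ratio to ACVR2B was 6.91-fold higher in the NPC library (5.80 to 8.26). The ratio of ACVR1B to ACVR2B reads was 2.79-fold higher (2.45 to 3.20) and that of ACVR2A to ACVR1B reads 2.47-fold higher (2.01 to 3.04). Lengths are those of the longest GENCODE 29 transcript, and the use of shorter forms was not measured. ORC4 overlaps ACVR2A on the other strand, with 9081 reads in the NPC and 4362 in the hESC library, and without a stated strand their reads cannot be told apart where they overlap.

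Summed per kb over the 10 genes, the level was 24.3 CPM per kb in the NPC and 351 CPM per kb in the hESC library. The receptors made up 88.3% of that sum in the NPC library and 5.44% in the hESC library. TDGF1 made up 0.841% in the NPC and 84.4% in the hESC library. Below the receptors the order was partly resolved in the NPC library. From FOXH1 (1.01 CPM per kb) down to GDF3 (0 reads) each gene's counting interval overlapped that of the next, but the interval of FOXH1 lay above those of LEFTY2, NODAL, TDGF1, LEFTY1 and GDF3, and that of LEFTY2 above those of TDGF1, LEFTY1 and GDF3. In the hESC library TDGF1, ACVR2B and FOXH1 led, at 296, 12.6 and 11.7 CPM per kb, and the intervals of ACVR2B and FOXH1 overlapped.

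**Figure D3:**
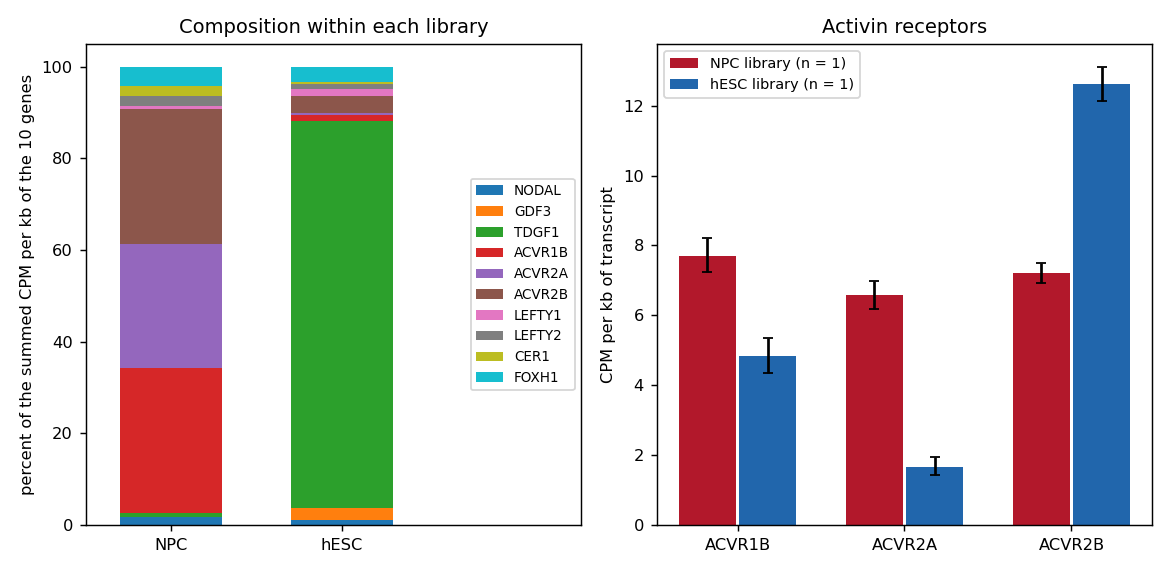
Left, the share of each of the 10 genes in their summed CPM per kb of transcript, in the NPC and the hESC library. Right, CPM per kb of the 3 receptor genes with exact 95% counting intervals, NPC left of hESC. The receptors fill 88.3% of the NPC bar and TDGF1 84.4% of the hESC bar, and the NPC levels of the receptors lie between 6.58 and 7.71 CPM per kb.

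LEFTY1 and LEFTY2 were lower to different degrees, and CER1 was low in both libraries. LEFTY1 and LEFTY2 encode antagonists that bind Nodal and its co-receptor. LEFTY1 had 7 reads (0.257 CPM) in the NPC and 167 reads (9.61 CPM) in the hESC library, and was 34.9-fold lower (17.7 to 94.3). LEFTY2 had 32 reads (1.18 CPM) in the NPC and 147 reads (8.46 CPM) in the hESC library, and was 7.10-fold lower (4.88 to 10.9). LEFTY1 was the smaller part of the pair in the NPC library, and the intervals of its share in the libraries did not overlap. It had 17.9% of the 39 LEFTY reads in the NPC library (7.54% to 33.5%) and 53.2% of 314 in the hESC library (47.5% to 58.8%). The ratio of LEFTY1 to LEFTY2 reads was 5.17-fold lower in the NPC library (2.16 to 14.3). LEFTY1 shared 31.3% of its 50-base stretches with LEFTY2 and 52.9% with AL117348.2, a gene that overlaps it on the same strand, and 54.7% with any other gene. Part of these reads cannot be assigned with certainty. Counted as 1 gene they had a log2 ratio of -3.64, against -5.13 for LEFTY1 and -2.83 for LEFTY2 as counted. CER1, a secreted antagonist of Nodal and BMP made by mesendoderm, had 18 reads in the NPC and 27 reads in the hESC library, a ratio of 0.430 (0.221 to 0.802). At 0.662 CPM in the NPC and 1.55 CPM in the hESC library it lay under the filter in both.

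FOXH1 was lower while the general SMAD genes were not. FOXH1, the forkhead partner of SMAD2 and SMAD3, had 69 reads (2.54 CPM) in the NPC and 510 reads (29.3 CPM) in the hESC library, and was 11.5-fold lower (8.98 to 15.1). Its 69 reads were the most that any of the 6 lower genes kept in the NPC library. KIFC2 overlaps FOXH1 on the other strand and had 540 reads in the NPC and 230 in the hESC library, so some FOXH1 reads may not be told from it. SMAD2 had 71.4 CPM in the NPC and 76.7 CPM in the hESC library, and SMAD4, the shared partner, 78.9 CPM in the NPC and 85.0 CPM in the hESC library. Neither was called. Of the 7 intracellular effector genes, FOXH1 was lower, SMAD3 higher and 5 were not called. SMAD3 was 3.34-fold higher (3.004 to 3.72), at 78.4 CPM in the NPC and 23.5 CPM in the hESC library. It had 52.4% of the SMAD2 and SMAD3 reads in the NPC library (50.8% to 53.9%) and 23.4% in the hESC library (21.5% to 25.5%). The ratio of FOXH1 to SMAD2 reads was 10.8-fold lower in the NPC library (8.26 to 14.2).

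Of the other pathway genes, 48 in number, 31 were measured. Of these, 8 were higher and 4 lower in the NPC library, where 19.6% of all genes were higher and 19.8% lower, the shares against which the counts of each list below stand. Their median log2 ratio was -0.10, against -0.09 for all genes. CFC1, CFC1B, EOMES, GDF1, LDLRAD4 and WNT3, which was not called, reached 5 CPM through the NPC library alone, and NANOG through the hESC library alone. That leaves no way to the opposite call, and the 8 higher genes include both CFC1 copies. These counts and those of each list are therefore descriptions. In the list of 12 ligands and processing enzymes 6 were measured, of which 2 were lower (NODAL and GDF3) and 2 higher (GDF11 and GDF1), with a median log2 ratio of 0.26. GDF11, a ligand of the same type II receptors, was 5.35-fold higher (4.76 to 6.05), at 94.0 CPM in the NPC and 17.5 CPM in the hESC library. GDF1, a partner of Nodal in vertebrate embryos, was 2.85-fold higher (2.21 to 3.78), but it shares a transcript with CERS1 (743 reads in the NPC and 219 in the hESC library). The genes of the Activin subunits stayed below 5 CPM. INHBB, of Activin B, had 82 reads in the NPC and 3 reads in the hESC library, a ratio of 15.1 (5.77 to 86.4), and INHBA, of Activin A, had 35 reads in the NPC and 11 in the hESC library. FURIN and PCSK5, which cleave ligand precursors, were not called. FURIN had 32.5 CPM in the NPC and 36.7 CPM in the hESC library.

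Of 8 receptor genes 7 were measured, of which 2 were higher and none lower, with a median log2 ratio of -0.23. With the length trend removed ACVR2A alone was higher, and ACVR2B and TGFBR2 were lower. Besides ACVR2A, TGFBR1, a type I receptor gene for TGF-beta, was 2.46-fold higher (2.29 to 2.64), at 133 CPM in the NPC and 54.1 CPM in the hESC library. That call was lost with the length trend removed. ACVR1C (ALK7), a type I receptor gene for Nodal and Activin B, had 5 reads in the NPC and 23 in the hESC library and was below the filter. TGFBR2, which had 5.29 CPM in the NPC and 12.4 CPM in the hESC library, TGFBR3 and BAMBI were not called. TGFBR2 was called lower with the point ratio, with log2 of CPM + 1 and with the length trend removed (log2 ratio -1.34, in place of -1.22). Of 8 secreted inhibitor genes 4 were measured, of which LEFTY1 and LEFTY2 were lower. FST, whose product follistatin binds Activin, had 15.4 CPM in the NPC and 6.21 CPM in the hESC library, a ratio of 2.46 (1.997 to 3.09) that stopped just short of the rule. FST was called higher with the library total, upper-quartile factors, the point ratio, log2 of CPM + 1 and the length trend removed. TMEFF1 had 103 CPM in the NPC and 83.0 CPM in the hESC library and was not called.

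Of 10 intracellular inhibitor genes, 3 were lower and 1 was higher in the NPC library, with a median log2 ratio of -0.55. SKIL, which encodes the SMAD corepressor SnoN, was 4.52-fold lower (4.23 to 4.84), and TGIF1, another corepressor gene, was 3.09-fold lower (2.88 to 3.30). NEDD4L, the gene of a ubiquitin ligase that acts on activated SMADs, was 2.18-fold lower (2.05 to 2.32), and was not called with the library total. LDLRAD4, whose product hinders the phosphorylation of SMAD2 and SMAD3, was 8.55-fold higher (6.36 to 12.0), with 595 reads in the NPC and 44 reads in the hESC library. SMAD7 and PMEPA1, which are both inhibitors and targets of the pathway, were not called. SMAD7 had 13.2 CPM in the NPC and 20.1 CPM in the hESC library, and PMEPA1 had 20.7 CPM in the NPC and 29.6 CPM in the hESC library. Among 17 target genes 9 were measured, of which NODAL, LEFTY1, LEFTY2, NANOG and SKIL were lower and EOMES was higher. NANOG, a pluripotency factor gene, had 70 reads in the NPC and 3542 reads in the hESC library. EOMES, a T-box factor gene used in mesendoderm and in cortical intermediate progenitors, had 350 reads in the NPC and 11 reads in the hESC library, and was 19.5-fold higher (11.2 to 41.1). GSC, T and SOX17 had at most 8 reads in any library. Among 10 mesendoderm markers EOMES alone was measured, and the list summed to 20.5 CPM in the NPC and 3.68 CPM in the hESC library, with T at 0 reads in the NPC library and SOX17 and MESP1 at 0 in the hESC library. The part of such cells in the EOMES difference was not tested.

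**Figure D4:**
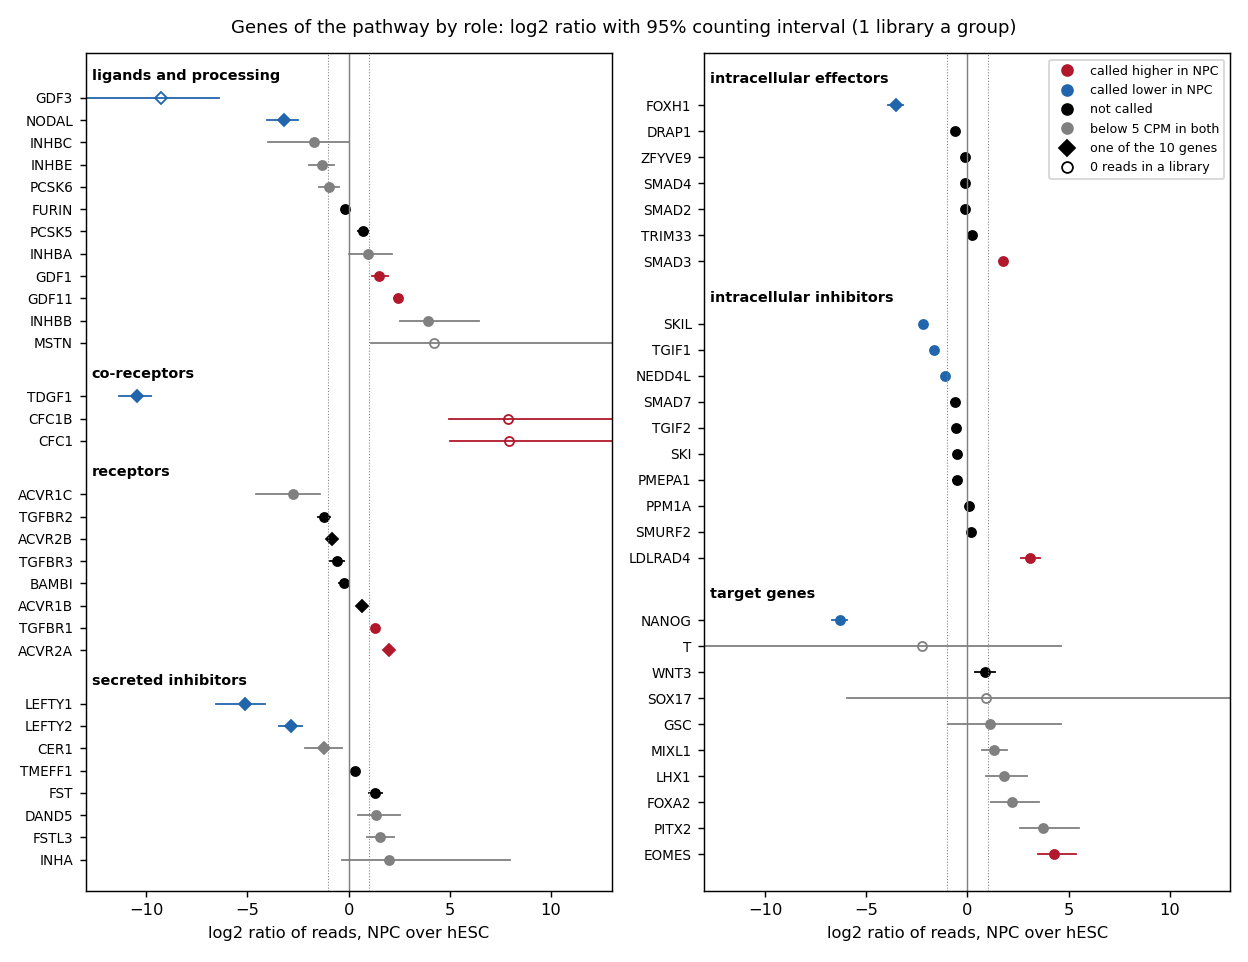
Log2 ratio of reads, NPC over hESC, with exact 95% counting intervals, for all 58 genes of the pathway lists by role. Diamonds are the 10 genes, open symbols have 0 reads in a library, colours give the call and dotted lines mark a 2-fold difference. TDGF1 and the CFC1 copies stand at opposite ends, and SMAD2 and SMAD4 lie near 0.

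The genes called lower did not all differ to the extent of POU5F1, the gene of the pluripotency factor OCT4. POU5F1 had 18 reads in the NPC and 21886 in the hESC library. TDGF1 had 43.8% of the TDGF1 and POU5F1 reads in the NPC library (26.4% to 62.3%, 32 reads) and 37.2% in the hESC library (36.7% to 37.7%). Its ratio to POU5F1 was 1.31 times that of the hESC library (0.605 to 2.80), so a difference was not detectable at this depth. NODAL had 51.4% of the NODAL and POU5F1 reads in the NPC library (34.4% to 68.1%, 37 reads) and 0.518% in the hESC library (0.428% to 0.622%). The ratio of NODAL to POU5F1 reads was 202-fold higher in the NPC library (97.5 to 419.6). The same measure was 50.9-fold higher for LEFTY1 (17.7 to 129.8), 264-fold higher for LEFTY2 (140.0 to 511), 799-fold higher for CER1 (352 to 1834) and 164-fold higher for FOXH1 (95.8 to 296). For GDF3, with 0 NPC reads, it was at most 25.2. Relative to POU5F1, NODAL, both LEFTY genes, CER1 and FOXH1 thus had more reads in the NPC than in the hESC library. All these intervals rest on 18 POU5F1 reads in the NPC library. The folds also depend on the gene chosen for comparison. POU5F1 had the lowest log2 ratio of the pluripotent cell list, at -10.85, where the median of the list was -6.91. Beside any other gene of that list the folds of NODAL, both LEFTY genes, CER1 and FOXH1 would be smaller. By point values TDGF1 (-10.45) lay above POU5F1 alone, with LIN28A (-9.54) next, so TDGF1 would be lower beside any other gene of the list. GDF3 (-9.29, 0 NPC reads) lay above POU5F1 and LIN28A alone, so it would be lower beside the rest. Beside EPCAM (-4.66) or PODXL (-4.82), but no other gene of the list, the point value of LEFTY1 (-5.13) would be lower. LEFTY1 had 7 NPC reads. The bound of its log2 ratio nearest to no change was -4.15, so its order beside EPCAM and PODXL was not resolved.

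The genes nearest to NODAL in log2(CPM + 1) over both libraries were PTGDR2, CRIP3 and NOS3, at distances of 0.0378 to 0.0532. Each had 20 reads in the NPC library and 111 to 118 reads in the hESC library. With 2 libraries such a likeness is shared by any gene of a like level and ratio.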

How the data were processed

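RNA was taken with Trizol and made into libraries with a SMARTER mRNA-Seq kit, per the labels' protocols. The authors deposited whole-number counts of reads for each gene symbol, in 2 tables of 25737 rows. The submitters' processing notes name TopHat, edgeR and hg19 without saying what each was used for. For the counter, strand setting, reads with several matches and annotation, the tool or setting is not given in the sources used here. For 286 symbols on several rows the row with most reads was kept, which left 24462 symbols, and no row lacked a name.

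Libraries were scaled with TMM factors (1.13 for the NPC and 0.884 for the hESC library) from edgeR 4.0.16 in R 4.3.3. At 5 CPM a gene rested on 136 reads in the NPC and 86.9 reads in the hESC library. Point ratios have 0.5 reads added to each count. Intervals are exact Clopper-Pearson ones at 95% on the NPC share of a gene's reads, and for pairs of genes the exact conditional interval of the odds ratio; 15 pairs were compared. Without molecular identifiers, reads can be copies of 1 molecule, so intervals and the floor of 3 reads cover counting error only and hold no variation between cultures. No p-value was computed. The labels give no batch, and any difference in handling cannot be told apart from the groups.

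Transcript lengths (longest GENCODE 29 transcript, found for 89.4% of symbols), shared 50-base stretches and overlapping exons come from an annotation of GRCh38, another build than hg19, and no gene coordinates are taken from it. The ratio code was tested on simulated counts for 24462 genes of this comparison. Calls were made for 0 of 67 genes set to a 1.5-fold change, for 67 of 67 at 3-fold, for 66 of 66 at 8-fold and for 0 of 12681 left as they were. The changed genes were drawn from those with more reads over both libraries than NODAL, GDF3, LEFTY1 or LEFTY2 had. The simulated counts held counting error only. The rates for changed genes therefore do not cover genes as low as these.

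The members, gene lists and tests were chosen with earlier results of these data known. The genes named are the 10 members, up to 3 called genes each way of a pathway list or its most abundant one, POU5F1, the copies and overlapping genes of members, and the 3 genes nearest to NODAL. Other genes named, such as INHBA, INHBB, ACVR1C, FST, SMAD2, SMAD4, CERS1 or GSC, were chosen after their values were seen. Alternatives were DESeq2 1.42.0 size factors, upper-quartile factors, the unscaled library total, filters at 1 and 20 CPM or none, a 4-fold bound, the point ratio, log2 of CPM + 1, the sum of rows, removal of 98 mitochondrial and ribosomal protein genes and summed copies. Removal of the length trend (lowess, fraction 0.5, statsmodels 0.14.6) was added after seeing the data. Other tools were Python 3.11.15, numpy 2.4.6, pandas 2.3.3, scipy 1.17.1 and matplotlib 3.10.9.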

Additional observations from a re-analysis of the deposited data

How the results depend on the processing

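No paired analysis was possible because each group had 1 library, and for the same reason no library could be left out. None of the 10 genes changed direction under any alternative. Of the 6 genes called lower, a filter at 20 CPM kept 2 (TDGF1 and FOXH1), because the others did not reach it. With a 4-fold bound 0 of the 10 genes were higher, since ACVR2A no longer passed. Among the other pathway genes, 4 of 21 measured were higher with a filter at 20 CPM, against 18.0% of all genes. With a 4-fold bound 5 of 31 were higher, against 9.13%, and 2 were lower, against 7.26%. The 5 include both CFC1 copies. Over all genes 1684 were higher with the 20 CPM filter, and 1236 were higher and 983 lower with the 4-fold bound. With log2 of CPM + 1 the ratios of low genes were smaller, as for GDF3 (-3.64 in place of -9.29), LEFTY1 (-3.08), LEFTY2 (-2.12), NODAL (-2.15) and TDGF1 (-8.94). The library total gave log2 ratios of 1.03 for ACVR1B, 2.33 for ACVR2A and -0.45 for ACVR2B. The reads left in the NPC library, 0 to 69 for the genes called lower, limit the precision of their ratios.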
